A study of Rattus norvegicus with 18 samples.

Results

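Genes that mark endothelial cells, the lining of blood vessels, were followed in cells cultured from the inner medullary collecting duct of the rat kidney, the last stretch of its tubule. The members were 10 genes, Pecam1, Cdh5, Kdr, Tek, Tie1, Vwf, Emcn, Egfl7, Esam and Robo4, and a feature of the array was taken for a gene where the platform's probe gene table gives it that single symbol. Of the 10 genes 9 had such a feature, 1 each, among 28328 features on the array, of which 15295 carried 1 symbol. Vwf, the gene of von Willebrand factor, was not analysed here. RNA was measured on 18 whole-transcript arrays in 6 groups of 3. In the first 3 groups, cells grown at 300 mosmol/kg spent 24 h at 600 mosmol/kg, with 5 µM cyclosporin A or without it (the 600 challenge with cyclosporin A and the 600 challenge), or stayed at 300 mosmol/kg (the 300 culture). In the other 3, cells grown at 600 mosmol/kg spent 24 h at 900 mosmol/kg, again with 5 µM cyclosporin A or without it (the 900 challenge with cyclosporin A and the 900 challenge), or stayed at 600 mosmol/kg (the 600 culture). By the labels all groups were primary cells, with no strain, age, sex or purity given. Cyclosporin A is an inhibitor of the phosphatase calcineurin.

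Endothelial cells hold together through cadherin and immunoglobulin-type adhesion proteins, and they take their growth and quiescence signals from vascular endothelial growth factor (VEGF) receptors and from the Tie receptors, whose ligands are the angiopoietins. In the kidney medulla the vasa recta, long straight vessels beside the tubules, keep the osmotic gradient in place. Several of the genes are also active outside vessels: Pecam1 on leukocytes and platelets, Esam on platelets and Tek on a class of monocytes. In RNA from a whole culture, fewer cells of a type and less RNA per cell cannot be told apart.

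The deposited values are logarithms of a base that the sources used here do not give. A level or a difference is therefore in log units, and 1 unit stands for 2 times the RNA if the base is 2, or for 2.72 times if the logarithm is natural. Array medians lay between 3.56 and 3.65, and lower quartiles between 2.48 and 2.7. Levels under the lower quartile of their array are not shown to stand above background, and of the 9 measured members this concerned Robo4 on 1 array. Whether the 3 arrays of each group hold RNA of separate animals or cultures is not stated, so p-values reflect only how much these arrays vary, and that variation may be technical. The epithelial genes Epcam (levels between 7.91 and 8.18) and Cdh1 (6.76 to 7.37) were read on every array. Aqp2, the water channel that defines collecting duct principal cells, was under the lower quartile on all arrays of the 600 challenge with cyclosporin A, the 600 challenge and the 300 culture (1.49 to 2.5), and lay between 6.32 and 8.02 in the 900 challenge with cyclosporin A, the 900 challenge and the 600 culture.

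Of the 9 measured members 5 had an entry in the RefSeq promoter table (build GRCr8, 250 bases before to 50 bases after a gene's start), Egfl7 with 2 starts. The windows below are of Tie1, Kdr and Egfl7, which fell in both osmotic challenges, and of Emcn, which rose in both, so that a reader can set them side by side. They run 5′ to 3′ along the gene's strand. Capitals mark matches to GGAAGT or its reverse ACTTCC, a form of the site bound by ETS factors. These are a transcription factor family with a broad role in endothelial genes.
Tie1, chr5:137304932-137305231, minus strand: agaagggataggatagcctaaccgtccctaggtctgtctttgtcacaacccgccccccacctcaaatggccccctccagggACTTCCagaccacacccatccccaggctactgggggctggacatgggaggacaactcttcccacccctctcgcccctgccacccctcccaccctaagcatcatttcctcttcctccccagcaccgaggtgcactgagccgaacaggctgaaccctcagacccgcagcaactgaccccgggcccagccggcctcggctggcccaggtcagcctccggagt
Kdr, chr14:32571813-32572112, plus strand: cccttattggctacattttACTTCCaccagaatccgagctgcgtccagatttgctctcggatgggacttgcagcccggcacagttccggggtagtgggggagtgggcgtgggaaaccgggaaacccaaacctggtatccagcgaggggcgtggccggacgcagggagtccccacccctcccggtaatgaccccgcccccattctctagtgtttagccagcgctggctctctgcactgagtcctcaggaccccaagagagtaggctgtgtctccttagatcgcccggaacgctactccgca
Egfl7, first start, chr3:29805381-29805680, plus strand: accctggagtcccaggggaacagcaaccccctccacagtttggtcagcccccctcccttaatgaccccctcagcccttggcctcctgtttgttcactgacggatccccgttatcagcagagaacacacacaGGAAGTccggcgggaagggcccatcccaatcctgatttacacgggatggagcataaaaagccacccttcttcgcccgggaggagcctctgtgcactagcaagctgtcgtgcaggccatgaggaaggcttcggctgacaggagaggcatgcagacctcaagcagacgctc
Emcn, chr2:228564289-228564588, plus strand: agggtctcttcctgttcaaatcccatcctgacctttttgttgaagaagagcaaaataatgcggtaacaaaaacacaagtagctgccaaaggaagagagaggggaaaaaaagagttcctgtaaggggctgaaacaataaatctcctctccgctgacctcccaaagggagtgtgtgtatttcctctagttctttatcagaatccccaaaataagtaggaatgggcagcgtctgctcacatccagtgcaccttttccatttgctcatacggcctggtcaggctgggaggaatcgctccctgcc

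The ETS letters began at position -169 from the start in Tie1, -231 in Kdr and -119 in the first window of Egfl7. No match to them was found in the windows of Emcn, Robo4 and the second start of Egfl7. Only these exact letters were searched. The shorter letters GGAA or TTCC within them do occur in each of these windows, so no match does not mean no ETS site. Of 33469 promoter windows in the table, 22.6% held these letters on either strand. A GC box (GGGCGG or CCGCCC) was found in Tie1, Kdr and the second Egfl7 window, where 2 of its 4 matches overlap each other, and 33.1% of all windows held one. The letters AGATAA, a core for GATA factors that 11.6% of all windows hold on either strand, were not found in the 6 member windows. Neither was the box TATAAA, which 14.2% of all windows hold on either strand. A match is a description of the letters only.

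Egfl7 also hosts a microRNA known for its part in endothelial cells: the mature sequences of miR-126a lie inside the gene's span (chr3:29802481-29814966, GRCr8). They are shown because the Egfl7 transcript carries them, with the seed (bases 2 to 8) in capitals, and the microRNA itself was not measured here.
rno-miR-126a-3p: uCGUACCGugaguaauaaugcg
rno-miR-126a-5p: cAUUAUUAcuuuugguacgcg

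The 600 challenge asked what acute hypertonicity did to cells grown at 300 mosmol/kg. Of the 9 measured members 6 fell, Tie1 most, 1 rose (Emcn) and 2 did not pass the test (Esam and Robo4). Among all features, 8.07% fell and 6.36% rose. The median difference of the members was -0.47 log units, against 0.017 over all features. By the labels no culture was moved at unchanged osmolality, so the effect of the osmolality and that of the move and the added day cannot be told apart.

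Among the receptors, Tie1, an orphan receptor that modulates signals through its sister receptor Tie2, read 3.91, 3.89 and 3.59 in the 600 challenge, against 5.22, 5.17 and 5.15 in the 300 culture. The difference was -1.39 ± 0.12 (SE, adjusted p = 1.41e-06, limma with Benjamini-Hochberg adjustment over all features), or 2.61-fold lower with base 2 and 4.0-fold lower with a natural logarithm. Every value of the challenge lay more than a log unit under every value of the 300 culture. Kdr, the main VEGF receptor of endothelial cells, read 3.23, 3.31 and 3.39 in the 600 challenge, against 4.03, 4.07 and 3.95 in the 300 culture, a difference of -0.71 ± 0.07 (adjusted p = 5.83e-06). Tek, which encodes the angiopoietin receptor Tie2, read 4.64, 4.58 and 4.76 in the 600 challenge, against 5.19, 5.18 and 5.13 in the 300 culture. Its difference of -0.51 ± 0.05 (adjusted p = 4.12e-06) again left the groups well apart.

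Egfl7, a protein secreted by endothelial cells into the matrix around young vessels, read 3.96, 3.85 and 3.7 in the 600 challenge, against 4.33, 4.51 and 4.4 in the 300 culture, a difference of -0.57 ± 0.07 (adjusted p = 3.5e-05). Emcn, which encodes the sialomucin endomucin of the endothelial surface, went the other way. It read 5.45, 5.56 and 5.49 in the 600 challenge, against 5.16, 5.07 and 5.14 in the 300 culture, a difference of 0.37 ± 0.06 (adjusted p = 0.000997). Robo4, a roundabout receptor that steadies the endothelial barrier, averaged 3.08 ± 0.12 in the 600 challenge and 3.27 ± 0.05 in the 300 culture (SD, n = 3 each), and its difference of -0.19 (95% interval -0.43 to 0.05) did not pass.

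The 3 junction genes did not move alike. Pecam1, the adhesion molecule CD31, averaged 6.16 ± 0.04 in the 600 challenge and 6.44 ± 0.02 in the 300 culture (SD, n = 3 each), a difference of -0.28 ± 0.05 (SE, adjusted p = 0.000688). Cdh5, the VE-cadherin of endothelial adherens junctions, read 3.56, 4.1 and 3.88 in the 600 challenge, against 4.33, 4.35 and 4.28 in the 300 culture. Its difference of -0.47 ± 0.14 passed (adjusted p = 0.0335), with the spread of the challenge arrays the widest of the 9 members in this group. It no longer passed without challenge replicate 1 (adjusted p = 0.154) or 3 (0.0681) or without replicate 1, 2 or 3 of the 300 culture (0.0873, 0.09 and 0.0684), and over its alternatives the adjusted p ran from 0.013 to 0.154. Esam, a tight junction protein of endothelium and platelets, averaged 5.94 ± 0.08 in the 600 challenge and 6.01 ± 0.07 in the 300 culture, and the difference of -0.07 (95% interval -0.2 to 0.07) did not pass.

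**Figure D1:**
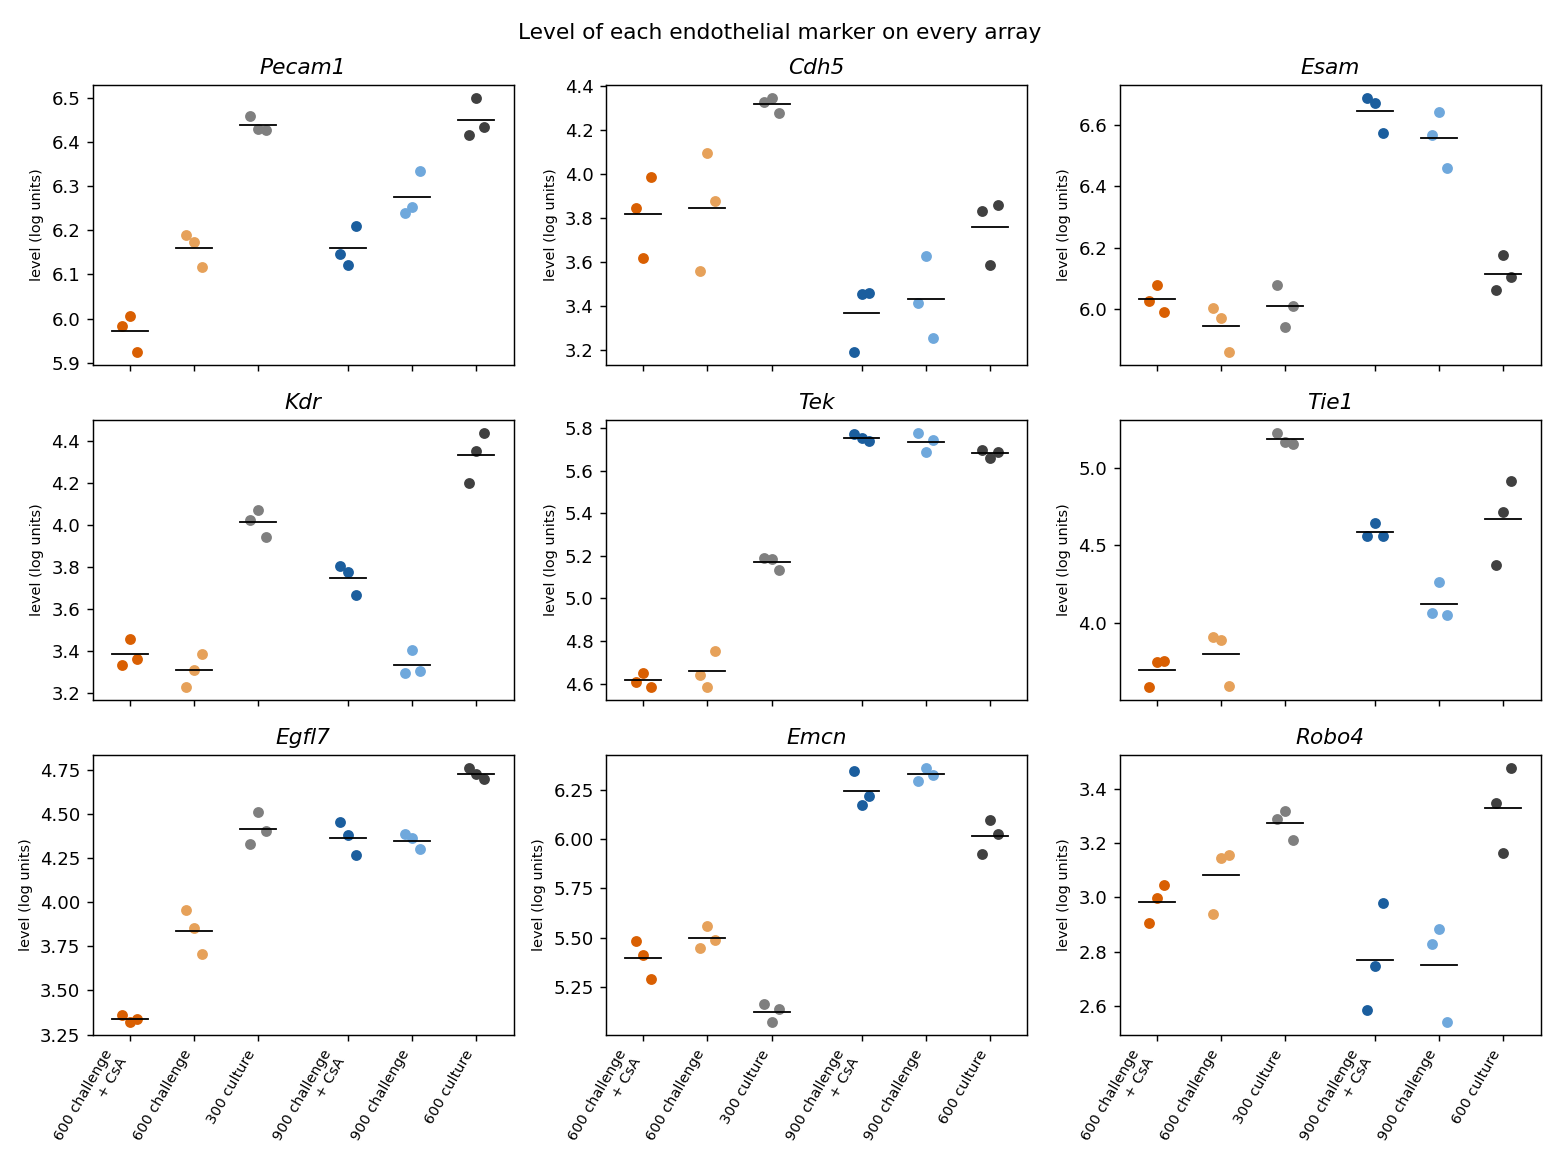
Level in log units (vertical axis, its own scale in each panel) of each of the 9 measured endothelial markers on all 18 arrays. Points are arrays, black lines are means of 3 arrays, and CsA is cyclosporin A. Tie1 lay between 3.59 and 3.91 in the 600 challenge and between 5.15 and 5.22 in the 300 culture, while Emcn and Esam were highest in the 900 challenges with and without the drug.

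With cyclosporin A present in the 600 challenge, the same number of members passed against the 300 culture, 6 lower and 1 higher, where 7.85% of all features fell and 6.21% rose. Both challenges were set against the same 3 arrays of the 300 culture, so their values are given side by side only. Tie1 read 3.58, 3.74 and 3.75 with the drug, a difference of -1.49 ± 0.12 from the 300 culture (SE, adjusted p = 7.09e-07). Egfl7 read 3.36, 3.32 and 3.34 with the drug, its lowest levels of all groups, and differed from the 300 culture by -1.07 ± 0.07 (adjusted p = 7.97e-08). Kdr differed by -0.63, Tek by -0.55, Cdh5 by -0.5 and Pecam1 by -0.47. Emcn was higher than in the 300 culture by 0.27 (adjusted p = 0.0108), which no longer passed without replicate 1 of the drug group (adjusted p = 0.0573) and ran from 0.00229 to 0.0791 over its alternatives. The Cdh5 call (adjusted p = 0.0258) was lost without replicate 1 or 2 of the drug group (0.0603 and 0.109) or without replicate 1, 2 or 3 of the 300 culture (0.0721, 0.0743 and 0.0565), in a range of 0.0144 to 0.109. Robo4 (difference -0.29, adjusted p = 0.111) and Esam (0.02, adjusted p = 0.883) did not pass, though Robo4 did in a fit of only these groups (adjusted p = 0.049, range 0.049 to 0.277).

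The 900 challenge put the question to cells that had been grown at 600 mosmol/kg. Here 5 of the 9 measured members fell, with Kdr first, 2 rose (Esam and Emcn) and 2 did not pass (Tek and Cdh5). Among all features 11.0% fell and 6.43% rose. The median difference of the members was -0.33, against -0.013 over all features.

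Kdr read 3.3, 3.41 and 3.31 in the 900 challenge, against 4.2, 4.36 and 4.44 in the 600 culture. That is a difference of -1.0 ± 0.07 (SE, adjusted p = 1.85e-07), or 2.0-fold lower with base 2 and 2.71-fold lower with a natural logarithm, with all challenge arrays far under all culture arrays. Tie1 read 4.06, 4.26 and 4.05 in the 900 challenge, against 4.37, 4.71 and 4.92 in the 600 culture, a difference of -0.54 ± 0.12 (adjusted p = 0.00431). The nearest arrays of these groups were close, since the 600 culture spread widely, and a fit of only these groups gave an adjusted p of 0.0768 in a range of 0.000343 to 0.0768. Tek read 5.78, 5.68 and 5.74 in the 900 challenge, against 5.7, 5.66 and 5.69 in the 600 culture, and its difference of 0.05 (95% interval -0.05 to 0.16) did not pass.

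Esam read 6.57, 6.64 and 6.46 in the 900 challenge, against 6.06, 6.18 and 6.1 in the 600 culture, a rise of 0.44 ± 0.06 (SE, adjusted p = 0.000126). Emcn read 6.3, 6.36 and 6.33 in the 900 challenge, against 5.92, 6.1 and 6.03 in the 600 culture, a rise of 0.31 ± 0.06 (adjusted p = 0.00335). Both genes thus had all challenge arrays above all culture arrays. Egfl7 averaged 4.35 ± 0.05 in the 900 challenge and 4.73 ± 0.03 in the 600 culture (SD, n = 3 each), a difference of -0.38 (adjusted p = 0.0011). Robo4 averaged 2.75 ± 0.18 in the 900 challenge, where 1 array lay under its lower quartile, and 3.33 ± 0.16 in the 600 culture, a difference of -0.58 ± 0.11 (adjusted p = 0.00202). Pecam1 averaged 6.28 ± 0.05 in the 900 challenge and 6.45 ± 0.04 in the 600 culture, and its difference of -0.17 (adjusted p = 0.0159) was not past the threshold once arrays were centred on their medians (adjusted p = 0.0736). The Pecam1 call was also lost without replicate 2 of the 600 culture (adjusted p = 0.0769) and without replicate 1 or 2 of the challenge (0.0646 and 0.0579), in a range of 0.00271 to 0.141. Cdh5 averaged 3.43 ± 0.19 in the 900 challenge and 3.76 ± 0.15 in the 600 culture, and its difference of -0.33 (95% interval -0.63 to -0.03, adjusted p = 0.133) did not pass.

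With cyclosporin A in the 900 challenge, 4 members were lower than in the same 600 culture and 2 were higher, where 10.5% of all features fell and 7.27% rose. With arrays centred on their medians, the split over all features turned from 2060 higher and 2980 lower to 2521 higher and 2189 lower. Kdr differed from the 600 culture by -0.58 ± 0.07 (SE, adjusted p = 2.8e-05), Robo4 by -0.56 ± 0.11, Egfl7 by -0.36 ± 0.07 and Pecam1 by -0.29 ± 0.05. Esam was higher by 0.53 ± 0.06 (adjusted p = 2.3e-05). Emcn was higher by 0.23 ± 0.06 (adjusted p = 0.0236), a call lost without replicate 1 or 3 of the 600 culture (adjusted p = 0.106 and 0.0554) or replicate 1 of the drug group (0.109), in a range of 0.00722 to 0.136. Tie1 read 4.56, 4.64 and 4.56 with the drug, inside the range of the 600 culture, and its difference of -0.08 (95% interval -0.33 to 0.17) did not pass. Neither did Tek (0.07, adjusted p = 0.372) nor Cdh5 (-0.39, adjusted p = 0.0692), which passed with dim features left out (adjusted p = 0.0497, range 0.0497 to 0.24).

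The test of the difference between the osmotic steps, the 900 challenge against its culture minus the 600 challenge against its own, passed for 3 members, all of them more positive in the step to 900. Among all features this difference was positive and past the threshold in 3.52%, and negative in 4.06%. For Tie1 it was 0.84 ± 0.17 (SE, adjusted p = 0.00621), so the fall in the step to 900 was smaller than that in the step to 600. For Tek it was 0.56 ± 0.07 (adjusted p = 0.00015), with a fall in the step to 600 and no difference past the test in the step to 900. For Esam it was 0.51 ± 0.09 (adjusted p = 0.00224), with a rise in the step to 900. Kdr fell in both steps, and its difference of -0.29 ± 0.1 did not pass (adjusted p = 0.0917), except without replicate 1 of the 600 culture (adjusted p = 0.0355, range 0.0355 to 0.198).

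**Figure D2:**
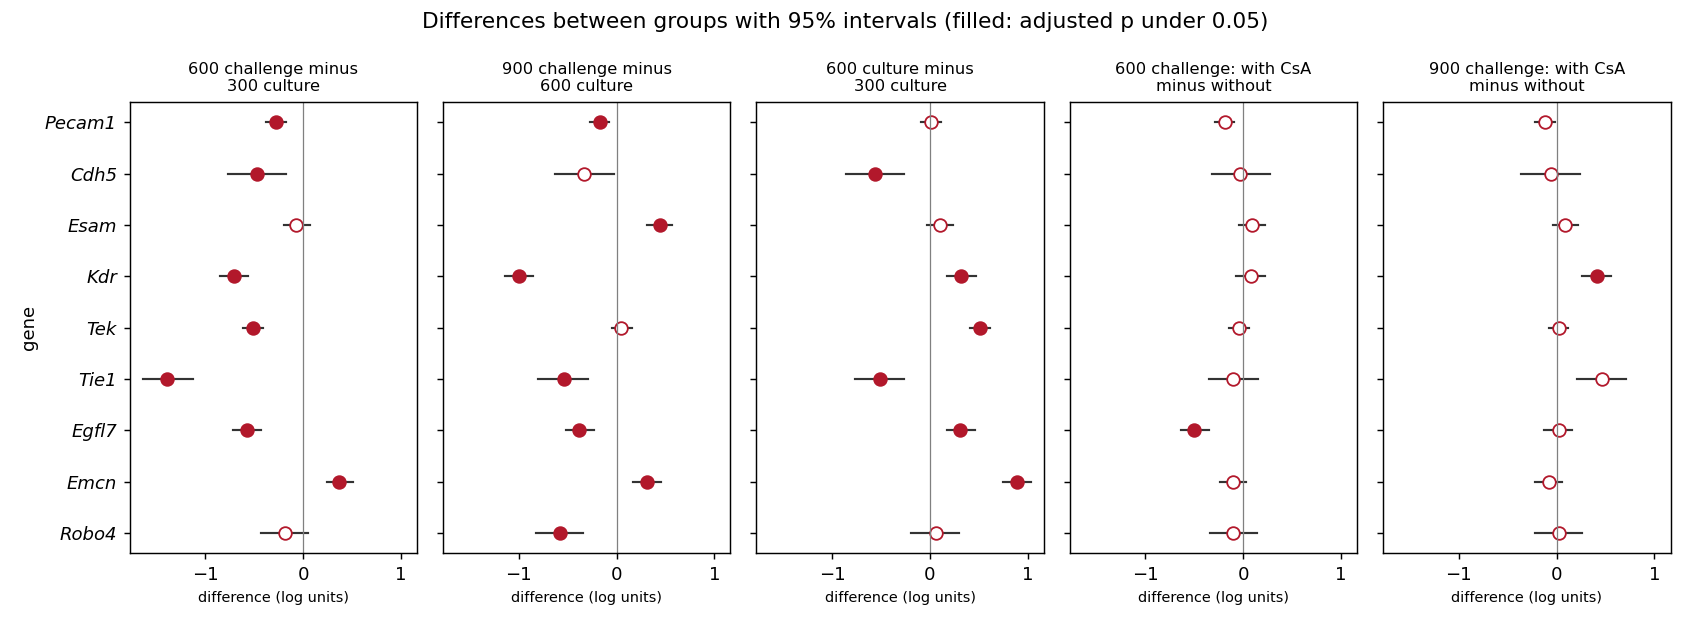
Difference in log units (horizontal axis) for each of the 9 measured markers in 5 comparisons, with 95% intervals from limma, where filled points passed an adjusted p of 0.05. Tie1 fell most in the 600 challenge (-1.39) and Kdr most in the 900 challenge (-1.0), while Emcn rose in both and was higher in the 600 culture than in the 300 culture by 0.89.

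Between cultures kept at 600 and at 300 mosmol/kg, with no acute change, 4 members were higher in the 600 culture, 2 were lower and 3 did not pass, against 8.33% of all features higher and 8.84% lower. Emcn was higher by 0.89 ± 0.06 log units (SE, adjusted p = 1.2e-07), averaging 6.02 ± 0.09 in the 600 culture and 5.13 ± 0.05 in the 300 culture (SD, n = 3 each). Tek was higher by 0.51 ± 0.05 (adjusted p = 1.88e-06), Kdr by 0.32 ± 0.07 (adjusted p = 0.00424) and Egfl7 by 0.31 ± 0.07 (adjusted p = 0.00409). Lower levels in the 600 culture were found for Cdh5, which differed by -0.56 ± 0.14 (adjusted p = 0.0109), and for Tie1, which differed by -0.51 ± 0.12 (adjusted p = 0.00618). The Cdh5 call was lost without replicate 2 of the 600 culture (adjusted p = 0.0553, range 0.0054 to 0.0553), and in a fit of only these groups the calls of Kdr (adjusted p = 0.0559, range 0.00153 to 0.0559) and Tie1 (0.0701, range 0.00125 to 0.0701) were lost.

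At the same 600 mosmol/kg, cells that had arrived there a day before differed widely from cells grown there. In the 600 challenge 6 members were lower than in the 600 culture, none was higher, and 3 did not pass, where 8.74% of all features were lower and 7.69% higher. Kdr and Tek both differed by about a log unit (-1.02 ± 0.07, adjusted p = 6.5e-08, and -1.02 ± 0.05, adjusted p = 1.63e-09, SE). Egfl7 differed by -0.89 ± 0.07, Tie1 by -0.87 ± 0.12, Emcn by -0.52 ± 0.06 and Pecam1 by -0.29 ± 0.05. The difference of Esam (-0.17, adjusted p = 0.0782) passed with dim features left out (adjusted p = 0.0495) and with a trended, robust variance (0.0279), in a range of 0.0279 to 0.266. For Cdh5 the difference was 0.08 (95% interval -0.21 to 0.38), and the groups overlapped.

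Cyclosporin A moved few of these genes. In the 600 challenge 1 of the 9 measured members differed between cells with and without the drug, Egfl7, which was lower with it (difference -0.5 ± 0.07 log units, SE, adjusted p = 0.00456). It read 3.36, 3.32 and 3.34 with the drug, against 3.96, 3.85 and 3.7 without it. Among all features 0.18% were lower and 0.229% higher. The Egfl7 call was lost in a fit of only these groups (adjusted p = 0.298, range 0.00208 to 0.298). In the 900 challenge Egfl7 averaged 4.36 ± 0.09 with the drug and 4.35 ± 0.05 without it (SD, n = 3 each), a difference of 0.02 (95% interval -0.13 to 0.16). The difference between these effects, 0.52 ± 0.1, did not pass (adjusted p = 0.0939). Pecam1 had a difference of -0.19 with the drug in the 600 challenge (95% interval -0.29 to -0.09), which did not pass (adjusted p = 0.123) except with a trended, robust variance (adjusted p = 0.0202, range 0.0202 to 0.549). All 3 of its arrays with the drug lay under all 3 without it.

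In the 900 challenge Kdr was the member that passed, higher with the drug by 0.41 ± 0.07 log units (SE, adjusted p = 0.0179). It read 3.81, 3.78 and 3.67 with the drug, against 3.3, 3.41 and 3.31 without it, and the groups did not overlap. Among all features 0.357% were higher and 0.148% lower. The call was lost without replicate 1 or 3 of the challenge (adjusted p = 0.0717 and 0.0811) and without replicate 1 or 2 of the drug group (0.0915 and 0.0536), in a range of 0.00903 to 0.296. Tie1 read 4.56, 4.64 and 4.56 with the drug, against 4.06, 4.26 and 4.05 without it. Although these arrays did not overlap, its difference of 0.46 ± 0.12 did not pass (adjusted p = 0.119, and 0.0476 with a trended, robust variance, range 0.0476 to 0.305). For Tek the interval of the drug's difference was -0.08 to 0.12 in the 900 challenge and -0.15 to 0.06 in the 600 challenge. The test of the difference between both drug effects called 0 of the 9 measured members in limma and 0.0459% of all features. An unadjusted p under 0.05 was reached by 3 of the 9 members and by 2150 of all 28328 features.

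By order of level, each gene had its own ranking of the 6 groups. Tek was lowest in the 600 challenge with and without cyclosporin A (4.62 and 4.66, overlapping), higher in the 300 culture (5.17), and highest in the 900 challenge with the drug, the 900 challenge and the 600 culture (5.75, 5.74 and 5.68), where neighbours overlapped. Emcn was lowest in the 300 culture (5.13), followed by the 600 challenge with the drug and without it (5.4 and 5.5, overlapping), the 600 culture (6.02) and the 900 challenge with the drug and without it (6.24 and 6.33, overlapping). Cdh5 ran nearly opposite to Emcn, from the 900 challenge with the drug (3.37) through the 900 challenge (3.43), the 600 culture (3.76), the 600 challenge with the drug (3.82) and the 600 challenge (3.84), each overlapping its neighbour, to the 300 culture (4.32), which stood apart. For Egfl7 the 600 challenge with the drug (3.34) and without it (3.84) stood apart from all others, and the 600 culture (4.73) was highest.

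Across the 18 arrays the markers did not share 1 pattern. Egfl7 and Pecam1 had the highest correlation of the 36 pairs (Pearson r = 0.85), followed by Emcn with Esam (0.84), Tek with Egfl7 (0.83) and Kdr with Tie1 (0.8). Cdh5 and Emcn had the lowest (r = -0.83), and Cdh5 and Esam came next (-0.75). The receptors Tek and Tie1 correlated at 0.51. These are descriptions over arrays that fall into 6 groups, so they mostly follow the group means.

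**Figure D3:**
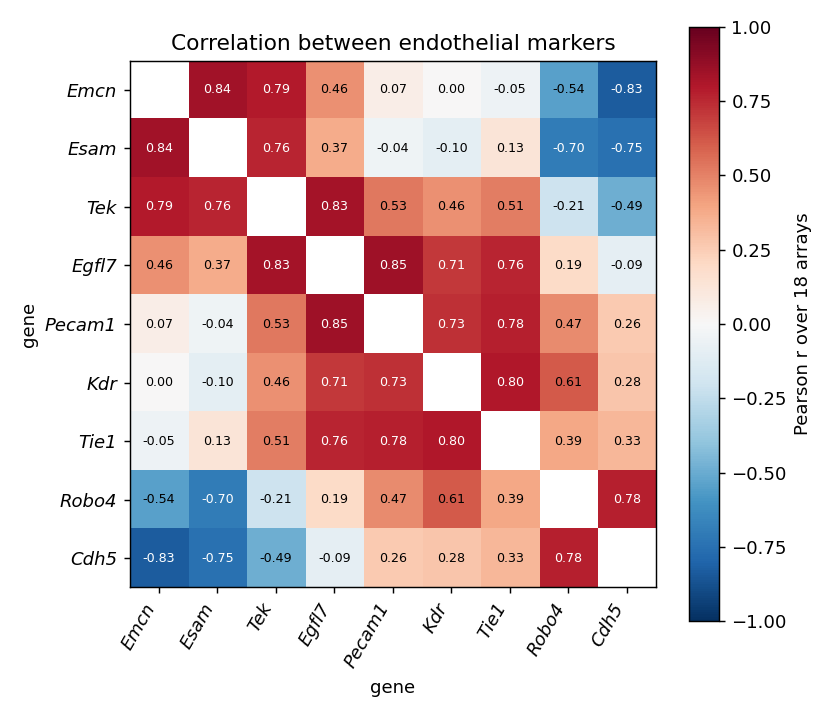
Pearson r over 18 arrays for each pair of the 9 measured endothelial markers, from blue (negative) to red (positive), with the value in each cell. Emcn, Esam and Tek correlate with each other at 0.76 to 0.84, and Cdh5 and Robo4 (0.78) correlate negatively with Emcn and Esam (-0.54 to -0.83).

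Among all other features with a gene symbol, those most like each marker over the 18 arrays were as follows. Emcn was closest to the endocytic adaptor gene Epn3 (r = 0.987), to Slc14a2, the urea transporter of the collecting duct (0.986), and to the water channel gene Aqp1 (0.986). Tek was closest to the interferon-induced Ifit2, the tyrosine kinase gene Fes and the galectin gene Lgals9 (each 0.992), and Esam to the adenylyl cyclase gene Adcy3 (0.982). Kdr followed Sppl2a (0.955) and the DNA synthesis genes Tyms and Pclaf (each 0.929), and Tie1 the epithelial cadherin gene Cdh1 (0.917). For Egfl7 the closest was Serpinb1a (0.971), for Pecam1 Ctbs (0.969), for Cdh5 Homer3 (0.921) and for Robo4 the kinase gene Ptk2b (0.896). With 18 arrays in 6 groups many genes reach such values, and no test was made.

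Of 36 other genes known from endothelium, 33 were measured. In the 600 challenge 17 of them were lower than in the 300 culture and none was higher (median -0.4 log units, against 0.017 over all features). The shares of all features were 8.07% lower and 6.36% higher. The 17 include Gpihbp1, which was under the lower quartile on all 18 arrays, Apold1, under it on 14, and Notch4, under it on 8. The falls included the transcription factor genes Fli1 (-1.12) and Sox18 (-0.92), Clec14a (-0.96), the TGF-beta family receptor gene Acvrl1 (-1.26) and Nos3, the endothelial nitric oxide synthase (-0.39). In the 900 challenge 13 were lower than in the 600 culture and 2 higher (median -0.15, against -0.013). Of all features 11.0% were lower there and 6.43% higher. Sox17, a transcription factor of arterial endothelium, fell by 1.47, Selp, the P-selectin gene, fell by 1.34, and Gata2 (0.65) and Prox1 (0.56) rose. The 600 culture had 5 higher and 11 lower than the 300 culture (median -0.12, against 0.002 over all features). The shares of all features were 8.33% higher and 8.84% lower. Plvap, whose protein spans the diaphragms of capillary pores, was higher by 1.61 and Slc14a1, the urea transporter of the descending vasa recta, by 1.74. Gata2 was higher by 1.9, but it was under the lower quartile on 6 of the 18 arrays. Its mean of 2.62 in the 300 culture lay within the span of the array lower quartiles (2.48 to 2.7). The genes lower in the 600 culture included Selp (-1.71), the lymphatic hyaluronan receptor gene Lyve1 (-0.89) and the VEGF receptor gene Flt4 (-0.78). Cyclosporin A in the 600 challenge left 1 of the 33 past the threshold, Acvrl1, higher by 0.5, where 0.229% of all features were higher and 0.18% lower. Sox7 and Tal1 were also under the lower quartile on all 18 arrays and Cldn5 and Sele on 17 of them.

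Of 19 ligands and co-receptors of the VEGF, angiopoietin and related pathways, 18 were measured, and 7 fell and 1 rose in the 600 challenge (median -0.24), where 8.07% of all features fell and 6.36% rose. In the 900 challenge 6 fell and 2 rose (median -0.17), where 11.0% of all features fell and 6.43% rose. Vegfa, the ligand of Kdr, had a difference of -0.07 in the 600 challenge (adjusted p = 0.685), rose by 0.58 in the 900 challenge (adjusted p = 0.000209) and was lower in the 600 culture than in the 300 culture (difference -0.85). Angpt2, an angiopoietin that acts on Tie2, differed by -0.24 in the 600 challenge and by -0.27 in the 900 challenge, and was lower with cyclosporin A in the 900 challenge (difference -0.47, adjusted p = 0.0125). Angpt1, the angiopoietin that activates Tie2, did not pass in any of the 4 challenges against its culture, with differences between -0.23 and 0.14. Apln, an endothelial peptide hormone gene, fell by 0.65 in the 600 challenge and by 1.19 in the 900 challenge.

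Markers of other cell types moved in the same comparisons, and their part in the endothelial results was not tested. Their counts stand beside 8.07% of all features lower and 6.36% higher in the 600 challenge. In the 900 challenge these shares were 11.0% and 6.43%. Pericyte and smooth muscle genes fell in 10 of 11 cases in the 600 challenge, with the mean level of the list between 4.76 and 4.84 on the challenge arrays and between 5.91 and 5.97 in the 300 culture. In the 900 challenge 10 of 11 fell too (4.58 to 4.86 on the challenge arrays, 5.73 to 5.81 in the 600 culture). Leukocyte genes fell in 12 of 13 in the 600 challenge (4.34 to 4.48 on the challenge arrays, 5.79 to 5.88 in the 300 culture) and in 13 of 13 in the 900 challenge (3.23 to 3.3 on the challenge arrays, 4.49 to 4.62 in the 600 culture). Fibroblast genes fell in 7 of 12 in each challenge (4.02 to 4.11 against 4.63 to 4.66 in the 600 challenge and its culture, and 3.96 to 4.02 against 4.35 to 4.42 in the 900 challenge and its culture). No gene of these lists was at 0 on any array, but some lay under the lower quartile by group mean. For leukocyte genes this concerned 1 in the 600 challenge and 3 in the 900 challenge. For fibroblast genes it concerned 2 in the 600 challenge, 4 in the 900 challenge and 3 in each culture.

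Of 4 platelet genes measured, Pf4 fell by 0.95 in the 600 challenge, Ppbp did not pass (difference -0.08, adjusted p = 0.853), and Gp1ba and Gp9 were under the lower quartile on all 18 arrays. Collecting duct principal cell genes rose in 2 of 10 (Slc14a2 and Aqp2, which was under the lower quartile in both groups) and fell in 1 in the 600 challenge (list mean 3.07 to 3.09 on the challenge arrays, 2.86 to 2.99 in the 300 culture), and rose in 6 of 10 in the 900 challenge (5.52 to 5.55 on the challenge arrays, 4.94 to 5.3 in the 600 culture). Between the 600 and the 300 culture 7 of 10 of them were higher, in the comparison in which Emcn and Tek were higher as well. Of all features 8.33% were higher there and 8.84% lower. By group mean, 5 of the 10 principal cell genes lay under the lower quartile in the 300 culture and 4 in the 600 challenge. In the 600 culture and in the 900 challenge this concerned 2 each. Scnn1b was under it on all 18 arrays, Scnn1g on 17 and Hsd11b2 on 11. Aqp2 read 6.32 to 6.84 and Slc14a2 5.61 to 6.03 in the 600 culture, while both were under the lower quartile on all arrays of the 300 culture, so no size is given for these differences. Epithelial genes rose in 1 of 9 and fell in 3 in the 600 challenge (median -0.03). They rose in 1 and fell in 4 in the 900 challenge (median -0.02). The genes past the test in the 600 challenge were Cdh1 (difference -0.51), Krt18 (-0.21), Krt8 (-0.17) and Krt19 (0.24). Those in the 900 challenge were Krt18 (-0.42), Krt8 (-0.37), Cldn8 (-0.3), Cdh1 (-0.24) and Krt19 (0.18). These principal cell and epithelial counts stand beside 6.36% of all features higher and 8.07% lower in the 600 challenge, and 6.43% higher and 11.0% lower in the 900 challenge. With cyclosporin A in the 900 challenge, the comparison in which Kdr was higher, 1 of 13 leukocyte genes was higher. Of 11 pericyte and smooth muscle genes 1 was higher and 3 were lower (list mean 4.53 to 4.64 with the drug, 4.58 to 4.86 without it). The lower genes include Cnn1 (difference -0.76), whose mean of 2.38 with the drug lay under every array lower quartile (2.48 to 2.7). The shares of all features in this comparison were 0.357% higher and 0.148% lower. In the 600 challenge, where Egfl7 was lower with the drug, 1 of 10 principal cell genes was lower too (Gata3, difference -0.47, adjusted p = 0.000625), as was 1 of 9 epithelial genes (Krt19, -0.28, adjusted p = 0.0182). Of the 11 pericyte and smooth muscle genes 2 were higher there and none was lower (list mean 4.94 to 5.1 with the drug, 4.76 to 4.84 without it). The shares of all features for the drug in the 600 challenge were 0.229% higher and 0.18% lower.

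**Figure D4:**
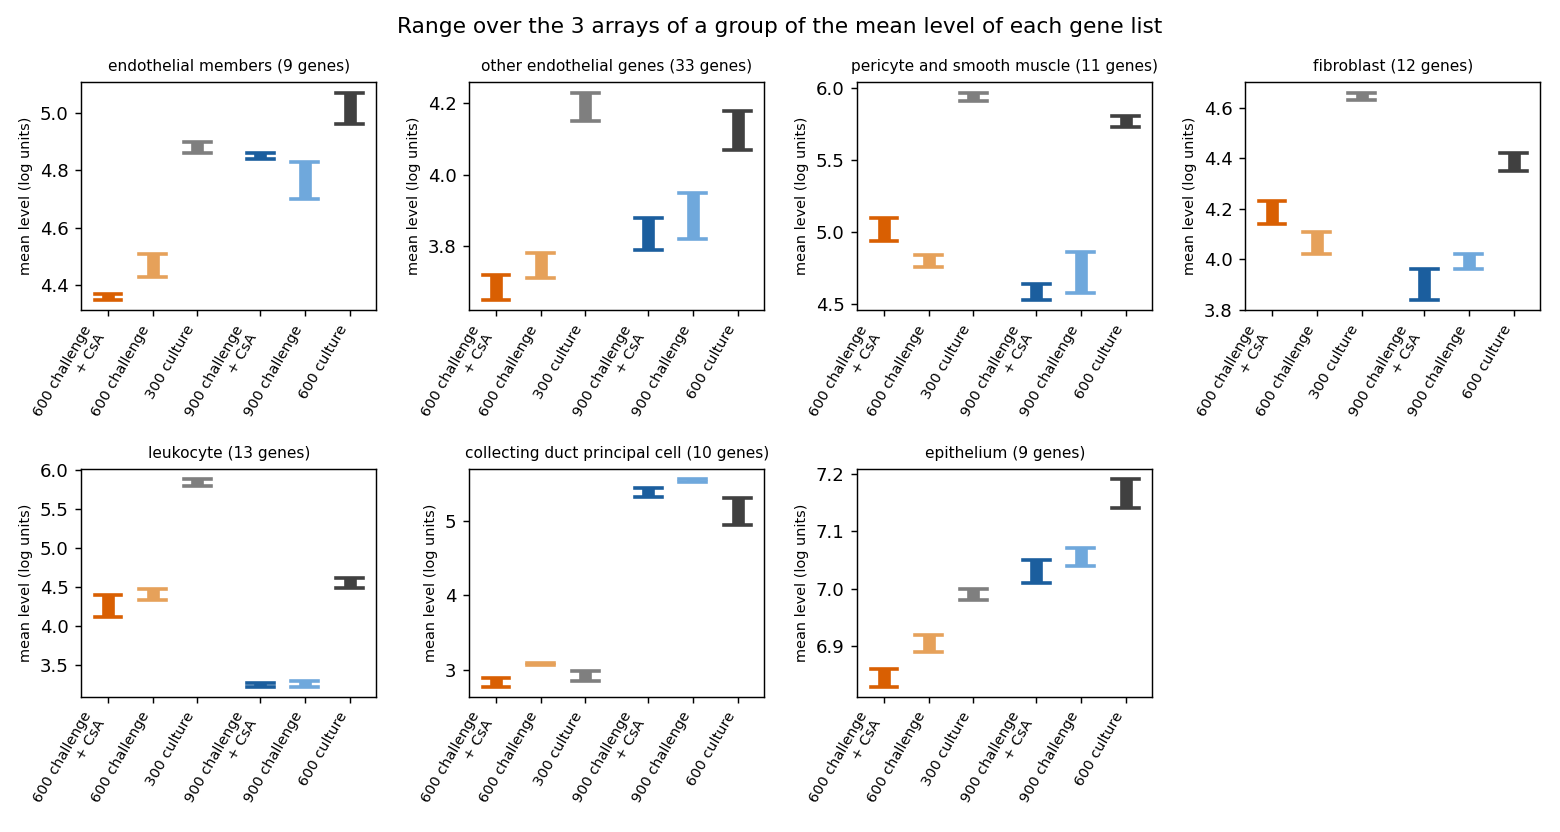
Range over the 3 arrays of a group of the mean level in log units (vertical axis, its own scale in each panel) of 7 gene lists. The 9 endothelial members lay between 4.43 and 4.51 in the 600 challenge and between 4.86 and 4.9 in the 300 culture, and the principal cell list was at 4.94 or more in the 900 challenges and the 600 culture only.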

How the data were processed

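Per the labels' protocols, total RNA was prepared by Qiagen RNeasy and biotin-labelled after whole-transcript cDNA synthesis (Affymetrix). The authors deposited 1 log-scale expression value per feature and array. The base of the logarithm, the summary method and the normalization are not given in the sources used here. The series text names BRB Array Tools for pairwise comparisons. Values ran up to 9.5 and 27 were 0, and no filter or pseudocount was applied.

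Groups came from sample titles. Features were named through the platform's probe gene table (15295 features with 1 symbol, 322 with several, 12711 not named). The Entrez identifiers of 8 of the 9 measured members were in the reference gene table (GRCr8), and Robo4 matched by symbol. A list gene with several features was represented by that with the highest mean.

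All 18 arrays entered 1 limma fit with a mean for each of 6 groups (limma 3.58.1, R 4.3.3, 12 residual and 2.03 prior degrees of freedom), with Benjamini-Hochberg adjustment over 28328 features and a threshold of 0.05. Intervals are 95% and not adjusted. The script was tested on simulated data. The 10 contrasts were the 4 of the series text, both drug effects, the 600 against the 300 culture, the 600 challenge against the 600 culture, and differences between both steps and both drug effects. All members were named, list genes could be named, and likeness was the 3 highest Pearson r for each member among features with 1 symbol (no members, LOC or RGD placeholders, or Olr, Vom, Mir and Sno genes). The design had assumed log2 values, and the test was run on the log values as deposited. Alternatives were fits of only the groups compared, median centring, quantile normalization, dim features left out, a trended and robust variance, a replicate block, and each array left out in turn. Members and lists were chosen with earlier results of these data known. The number of arrays limits the precision.

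Same-numbered arrays of different groups did not deviate together (mean correlation of deviations 0.004 over 45 pairs, between -0.129 and 0.108), so replicate numbers were not taken as pairs. Numbers were those of the titles. For 2 arrays, replicate 3 of the 900 challenge with and without cyclosporin A, the source name gives 9 in place of 3.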

Additional observations from a re-analysis of the deposited data

Results flagged for a closer look

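The response to the osmotic step differed between the step to 900 and the step to 600 mosmol/kg in the test of the difference itself for 3 of the 9 measured endothelial markers. Among all features, 3.52% passed this test with a positive difference and 4.06% with a negative one. The difference was 0.84 log units for Tie1, 0.56 for Tek and 0.51 for Esam, each more positive in the step to 900. Tie1 differed by -0.54 in the step to 900 and by -1.39 in the step to 600, Tek by 0.05 and -0.51, and Esam by 0.44 and -0.07. The 3 calls held under all 18 alternatives tried for each, with differences between 0.69 and 0.97 for Tie1, 0.52 and 0.61 for Tek, and 0.47 and 0.56 for Esam.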

How the results depend on the processing

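Of 44 member results past the threshold, 33 stayed past it under all alternatives run for them, 11 lost the call under at least 1, and 0 changed sign. Of 46 results not past it, 6 passed under at least 1 alternative. The calls for cyclosporin A depended on the spread shared over all groups: a fit of only the groups compared called 0 members in the 600 challenge and 0 in the 900 challenge (1 each in the fit of all groups), and a trended, robust variance called 2 and 2. Leaving out each array in turn gave 1 to 1 members for the drug in the 600 challenge and 0 to 1 in the 900 challenge, 6 to 7 in the 600 challenge against the 300 culture, 5 to 7 in that challenge with the drug, 6 to 7 in the 900 challenge against the 600 culture, 5 to 6 in that challenge with the drug, 5 to 6 between the cultures, 6 to 6 between the 600 challenge and the 600 culture, 3 to 4 for the difference between the steps and 0 to 0 for that between the drug effects. With the replicate block the counts of members called were 7, 7, 7, 6, 1, 1, 6, 6, 3 and 0 in the 10 contrasts, the same as without it, and no member call changed. Of 18 arrays, 7 correlated best with others of their own number.

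Over all features, a fit of only the groups compared called 2479 (3982 in the fit of all groups) in the 600 challenge with the drug against the 300 culture, 2860 (4934) in the 900 challenge against the 600 culture, 3059 (5040) in that challenge with the drug, and 3071 (4655) between the 600 challenge and the 600 culture. With 1 array left out, 3127 to 3451 were called in the 600 challenge against the 300 culture and 2991 to 3370 with the drug. In the 900 challenge against the 600 culture 3770 to 4326 were called, and 3968 to 4349 with the drug. The counts were 3976 to 4128 between the cultures, 3798 to 3966 between the 600 challenge and the 600 culture, and 1505 to 2008 between the steps. For the drug in the 600 challenge the counts were 116 in the fit of all groups, 0 in the fit of these groups, 178 with dim features left out, 268 with a trended, robust variance and 39 to 67 with 1 array left out. In the 900 challenge they were 143, 0, 233, 385 and 43 to 76, and for the difference between the drug effects 13, 5, 27, 43 and 4 to 17. With no background values, the level that counts as detected is unknown, which limits Robo4 most. Group means under every array median (3.56 to 3.65) also occurred for Kdr, Egfl7 and Cdh5. Kdr averaged 3.31 in the 600 challenge, 3.39 in that challenge with the drug and 3.34 in the 900 challenge. Egfl7 averaged 3.34 in the 600 challenge with the drug. Cdh5 averaged 3.43 in the 900 challenge and 3.37 in that challenge with the drug.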
